A study of Mus musculus with 75 samples.

Results

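The 10 genes described here encode proteins of the contractile and cytoskeletal machinery of smooth muscle: Actg2, Acta2, Myh11, Mylk, Cnn1, Tagln, Smtn, Lmod1, Des and Synm. They were chosen by name, as the rows with these symbols in the deposited count tables, and all 10 of 10 were found among 21051 symbols in the table of untreated and 2 h libraries and among 21076 in the table of 24 h libraries. All 75 libraries carry the label of enteric glial cells, the glia of the gut wall, so these genes are read here as muscle RNA within libraries labelled as glia. No step of the cell isolation is given in the sources used here.

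Smooth muscle shortens when calcium and calmodulin activate myosin light chain kinase, which phosphorylates the regulatory light chain of smooth muscle myosin and lets it pull on actin filaments. Calponin, transgelin, smoothelin and leiomodin bind or build these actin filaments, while desmin and synemin belong to the intermediate filaments that tie the filaments into a network. In the gut wall the myenteric plexus lies between the circular and longitudinal muscle layers, and the submucosal plexus lies on the inner side of the circular muscle.

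The mice were adult, and every group carried the same green fluorescent reporter transgene. In the first experiment, 22 libraries came from untreated mice: 5 from the myenteric plexus of the colon, 6 from the myenteric plexus of the small intestine, 5 from the submucosal plexus of the colon and 6 from the submucosal plexus of the small intestine. In the second, reporter mice had received one intraperitoneal injection of LPS, a bacterial cell wall lipopolysaccharide (from E. coli O111:B4), at 2 mg/kg in PBS, or PBS alone, and were killed 2 h later, with 4 myenteric libraries from each treatment in each region. In the third, mice were killed 24 h after the same injections and were either Gpr37WT or Gpr37-/-, both with the reporter; in Gpr37-/- mice the orphan receptor gene Gpr37 is deleted. The 37 myenteric libraries of this experiment held 6 small intestine and 4 colon libraries of Gpr37WT mice given PBS, 4 and 5 of Gpr37WT mice given LPS, 4 and 5 of Gpr37-/- mice given PBS, and 5 and 4 of Gpr37-/- mice given LPS. Both sexes were present at each time.

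Total counts ran from 2547296 to 9002546 in the untreated libraries, from 1990744 to 7883251 at 2 h and from 2882539 to 33283346 at 24 h. In the 18 libraries labelled Gpr37-/-, Gpr37 had from 0 to 9 counts, and 17 of them had 3 or fewer. In the 19 libraries labelled Gpr37WT it had from 0 to 158 counts with a median of 59. Of these, 4 libraries labelled Gpr37WT had 3 or fewer counts: replicates 3, 4 and 5 of the LPS colon group and replicate 1 of the LPS small intestine group, and the edgeR comparisons at 24 h that they enter are given also without them. Such low counts also occurred in the first 2 experiments, whose labels read WT. There the 6 untreated submucosal libraries of the small intestine had 0 counts each. At 2 h the median was 3 (PBS) and 1 (LPS) in the colon, and 154.5 and 109.5 in the small intestine. No gene of the 10 glial markers was at 0 in every library of a group. The summed level of these glial markers was between 569 and 17863 CPM, that is, counts scaled to a common library total after TMM scaling.

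Positions are given on GRCm38 with the GENCODE vM21 annotation, in which each of the 10 is a protein-coding gene. The smooth muscle actins lie at chr6:83512905-83536265 (Actg2, minus strand) and chr19:34241090-34255590 (Acta2, minus strand), the myosin heavy chain Myh11 at chr16:14194535-14291372 (minus) and the light chain kinase Mylk at chr16:34745210-35002420 (plus). Of the actin-binding proteins, Cnn1 lies at chr9:22099216-22109630 (plus), Tagln at chr9:45929619-45936058 (minus), Smtn at chr11:3517523-3540612 (minus) and Lmod1 at chr1:135324807-135368065 (plus). The intermediate filament genes lie at chr1:75360329-75368579 (Des, plus) and chr7:67730160-67759742 (Synm, minus). Of the exon bases of Tagln, 54% are also exon bases of Gm48529 on the opposite strand, and for Smtn and Gm11946 the share is 16.6%. Use of strand in counting is not given in the sources used here, so reads of such pairs cannot be told apart. Only 0.326% of the 50-base stretches of Acta2 transcripts also occur in the cytoplasmic actin gene Actg1 or another of the 25 related genes searched, and none of those of Actg2 do.

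Many smooth muscle genes are switched on by serum response factor with its partner myocardin through a DNA element called the CArG box, and TEAD factors bind an element called MCAT. Since most of the 10 genes varied together across libraries, the 250 bases before their RefSeq transcription start (GRCm38.p6) were searched for both elements on both strands. A RefSeq sequence was present for 7 of the 10 genes, and Actg2, Tagln and Myh11 had no entry. The strict CArG box occurred in 0 of the 7 windows, against 1.47% of 32851 promoters of the same length. A looser form, in which at most 1 of the 6 middle letters is G or C, was searched after the strict form had given none. It occurred in 2 of 7 windows against 8.59% of all promoters. MCAT (CATTCC, or GGAATG on the other strand) occurred in 4 of 7 windows against 12.6% of all promoters. Every match is shown in a 30-base stretch, 5′ to 3′ on the strand of the gene, with the match in capitals, because these are the only letters of either kind found in the windows.
Acta2, CArG-like, chr19:34255438-34255467: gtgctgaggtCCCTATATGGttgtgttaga
Acta2, CArG-like, chr19:34255388-34255417: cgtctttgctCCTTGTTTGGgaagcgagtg
Synm, CArG-like, chr7:67759962-67759991: caacggggagCCTCATAAGGtgtcccagat
Acta2, MCAT, chr19:34255502-34255531: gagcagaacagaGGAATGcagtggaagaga
Lmod1, MCAT, chr1:135324671-135324700: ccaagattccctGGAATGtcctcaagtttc
Mylk, MCAT, chr16:34784780-34784809: tgcagttcagaaCATTCCctggtacgtgca
Smtn, MCAT, chr11:3539497-3539526: cggtttgtggcaCATTCCggactttggctt
The CArG-like matches of Acta2 begin 84 and 34 bases before its RefSeq start. That of Synm begins 239 bases before the start. The MCAT matches begin 146 bases before the start of Acta2, 130 before Lmod1, 158 before Mylk and 222 before Smtn. GENCODE places every match of Acta2, of either kind, within a longer first exon of the gene. A match describes letters only, and no match says only that these letters are not in this window.

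Muscle RNA was present in every library, at summed levels from 135 to 80387 CPM. The 10 genes together took between 0.0125% and 2.60% of all counts in the untreated libraries, between 0.176% and 8.07% at 2 h and between 0.0461% and 0.903% at 24 h. The half-width of the exact 95% binomial interval of these shares was at most 0.0258 percentage points, so counting error was small beside the differences between libraries. Such intervals cover counting error only, since PCR copies were not told apart. In bulk libraries of this kind, fewer muscle cells and less muscle RNA per cell cannot be told apart.

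In the untreated myenteric plexus, the summed level of the 10 genes had a lowest, median and highest value of 8212, 16139 and 26632 CPM in the colon and of 1713, 3773 and 11952 CPM in the small intestine. In the submucosal plexus it was 997, 1483 and 3643 CPM in the colon and 135, 854 and 1311 CPM in the small intestine. The submucosal libraries of either region thus lay below all its myenteric libraries, while the regions overlapped in both plexuses. At 2 h the summed level was 21431, 42117 and 80387 CPM in the colon after PBS, against 3241, 10120 and 18773 CPM in the small intestine after PBS. After LPS at 2 h it was 21928, 43428 and 67314 CPM in the colon and 1801, 12408 and 22477 CPM in the small intestine. At 2 h, 7 of the 8 small intestine libraries lay below every colon library, and the library at 22477 CPM lay just above the lowest colon libraries.

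At 24 h the ranges of the regions overlapped under each genotype and injection. After PBS, Gpr37WT mice had 1248, 3416 and 7365 CPM in the small intestine and 1258, 3632 and 8523 CPM in the colon, and Gpr37-/- mice had 882, 3635 and 9347 CPM and 1632, 2840 and 3771 CPM. After LPS, Gpr37WT mice had 428, 1520 and 3305 CPM in the small intestine and 774, 1114 and 3515 CPM in the colon. Gpr37-/- mice given LPS had 933, 1233 and 3471 CPM in the small intestine and 1729, 4027 and 5672 CPM in the colon. All 8 ranges at 24 h overlapped. No test was made on the summed level, and the 3 experiments were not tested against each other.

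**Figure D1:**
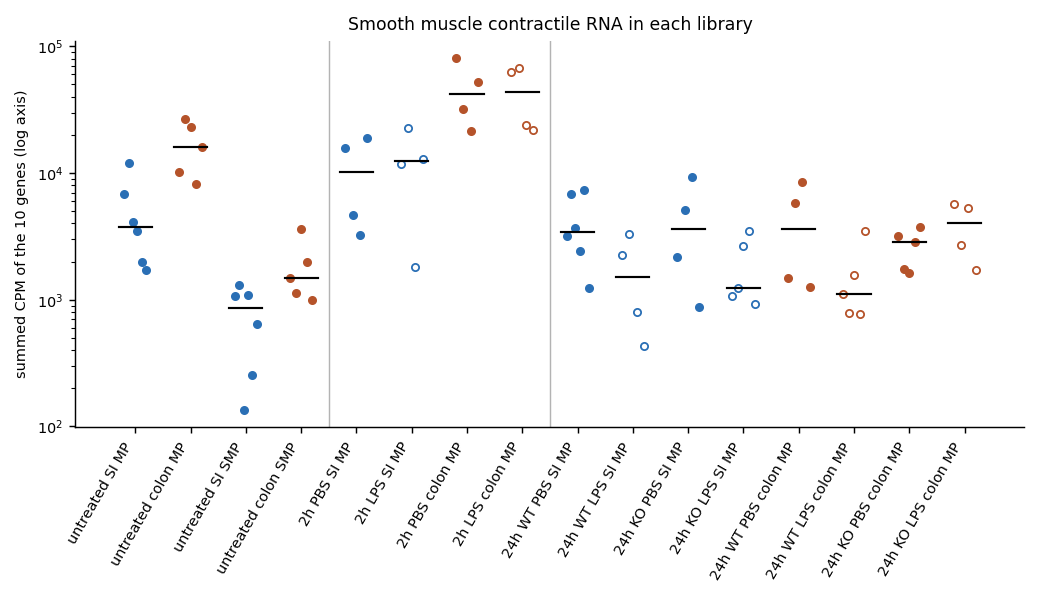
Summed level of the 10 smooth muscle genes in each of the 75 libraries (CPM, log axis) by group (SI, small intestine; MP and SMP, myenteric and submucosal plexus; WT and KO, Gpr37WT and Gpr37-/-), 1 point per library, open symbols for LPS, with a black line at each group's median. The group medians are highest in the colon of the untreated myenteric plexus and of the 2 h experiment and lowest, at 854 CPM, in the submucosal plexus of the small intestine, while single libraries of these and other groups overlap.

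The actins were the most abundant of the 10 per length of transcript. In CPM per kilobase of exon in the untreated colon myenteric plexus, Actg2 (the γ-actin of visceral smooth muscle) was at 2512 ± 1239 (SD, n = 5) and Acta2 (the α-actin shared with vascular muscle and myofibroblasts) at 1520 ± 635. In the same libraries Des, the muscle intermediate filament protein, stood at 998, Tagln at 784 and Cnn1 at 661 CPM per kb, and Myh11, Mylk, Smtn, Synm and Lmod1 followed at 185, 166, 106, 64.2 and 18.5. The order of neighbours such as Des, Tagln and Cnn1 was not tested. These SDs are taken across libraries, so they do not measure the order of genes within a library. In the small intestine the actins were level, at 533 (Acta2) and 521 (Actg2) CPM per kb, and Mylk at 122 stood above Cnn1 at 88.4. In the submucosal plexus Acta2 led with 420 CPM per kb (colon) and 159 (small intestine), followed by Tagln with 138 and 52.3, while Actg2 had 102 and 27.5. Lmod1, the leiomodin that starts actin filaments, was lowest in each of these 4 sites, at 4.96 and 2.23 CPM per kb in the submucosal groups.

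By the median over the 10 genes, the contrast between plexuses was the largest of the study. In the colon, 9 of the 10 fell from the myenteric to the submucosal plexus in edgeR's quasi-likelihood test (Benjamini-Hochberg adjusted p under 0.05 over all genes, 2-sided, as in every count that follows), against a background of 11.1% of the 14090 tested genes called lower. All 10 fell in the small intestine, against a background of 21.2% called lower. The 10 had a median log2 fold change of -3.34 (colon) and -3.14 (small intestine), beside -0.01 and 0.06 over all genes tested.

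Actg2 shows the contrast in single libraries. It was at 1702, 5611, 5720.3, 2036 and 4489 CPM in the 5 colon myenteric libraries and at 139.8, 95.5, 322, 169 and 71.2 CPM in the 5 colon submucosal libraries. In the small intestine it was at 298, 628 and 1750.2 CPM (lowest, median, highest of 6) in the myenteric and at 7.36, 35.8 and 107 CPM in the submucosal plexus. No submucosal library reached a myenteric one in either region. The log2 fold change was -4.62 ± 0.70 (SE) in the colon (edgeR adjusted p = 0.000225) and -4.24 ± 0.63 in the small intestine (edgeR adjusted p = 2.28e-05).

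The intermediate filament genes fell as well. Des was at 1742, 5764, 3651, 1585 and 2369 CPM in the colon myenteric libraries and at 35.9, 68, 239, 86.2 and 44.7 CPM in the colon submucosal ones. The groups did not overlap, and the fall of 4.99 ± 0.75 on the log2 scale (edgeR adjusted p = 0.000195) was the largest of the 10 in the colon. Synm, which encodes a partner of desmin, fell by 3.43 ± 0.54 in the colon and by 3.82 ± 0.51 in the small intestine.

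Smtn, a smoothelin found in contractile smooth muscle, had the smallest SE of the 10 in both regions. It was at 328, 615, 588, 169 and 459 CPM in the colon myenteric and at 45.5, 34, 56.1, 43.2 and 40.5 CPM in the colon submucosal libraries, again without overlap. It fell by 3.30 ± 0.38 in the colon (edgeR adjusted p = 5.38e-05) and by 2.63 ± 0.34 in the small intestine (edgeR adjusted p = 5.36e-06). Log2 fold changes in the colon, then the small intestine, were -4.80 ± 0.83 and -3.33 ± 0.71 for Cnn1, the calponin that dampens myosin ATPase activity. They were -3.12 ± 0.59 and -3.40 ± 0.54 for Mylk, the kinase that triggers contraction, and -3.38 ± 0.84 and -2.95 ± 0.76 for the myosin motor Myh11.

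Acta2, Tagln and Lmod1 had the smaller differences between plexuses. Acta2 was at 2161, 4210.3, 4705, 1541 and 4067 CPM in the colon myenteric and at 773, 508, 1833, 998 and 496 CPM in the colon submucosal libraries, so the highest submucosal library passed the lowest myenteric one. Its log2 fold changes were -1.86 ± 0.61 in the colon (edgeR adjusted p = 0.0323) and -1.74 ± 0.55 in the small intestine (edgeR adjusted p = 0.0138). Tagln fell by 2.50 ± 0.67 in the colon and by 1.52 ± 0.59 in the small intestine. Lmod1 had a log2 fold change of -1.90 ± 0.71 in the colon, which missed the threshold (edgeR adjusted p = 0.0591), and fell by 1.91 ± 0.66 in the small intestine.

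The calls of those smaller differences depended on single libraries. The colon call of Acta2 was lost without myenteric replicate 2 or 3 or without submucosal replicate 1, 2, 5 or 6, with log2 fold changes between -1.88 and -1.70 and an edgeR adjusted p of at most 0.0738. The small intestine call of Tagln was lost without myenteric replicate 1 or 2 or submucosal replicate 1, 3, 5 or 6, with log2 fold changes between -1.55 and -1.29 and, without myenteric replicate 2, of -1.004 (edgeR adjusted p = 0.17). Without that same myenteric replicate 2 the small intestine values of Lmod1 (-1.24) and Acta2 (-1.27) also missed the threshold. The colon value of Lmod1 passed it without myenteric replicate 4 (-2.15, edgeR adjusted p = 0.0411). The difference of the plexus contrast between regions was tested as an interaction, and edgeR called 0 of the 10 (background 1.19%), with 0 at an unadjusted p under 0.05 and 0 called by DESeq2.

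**Figure D2:**
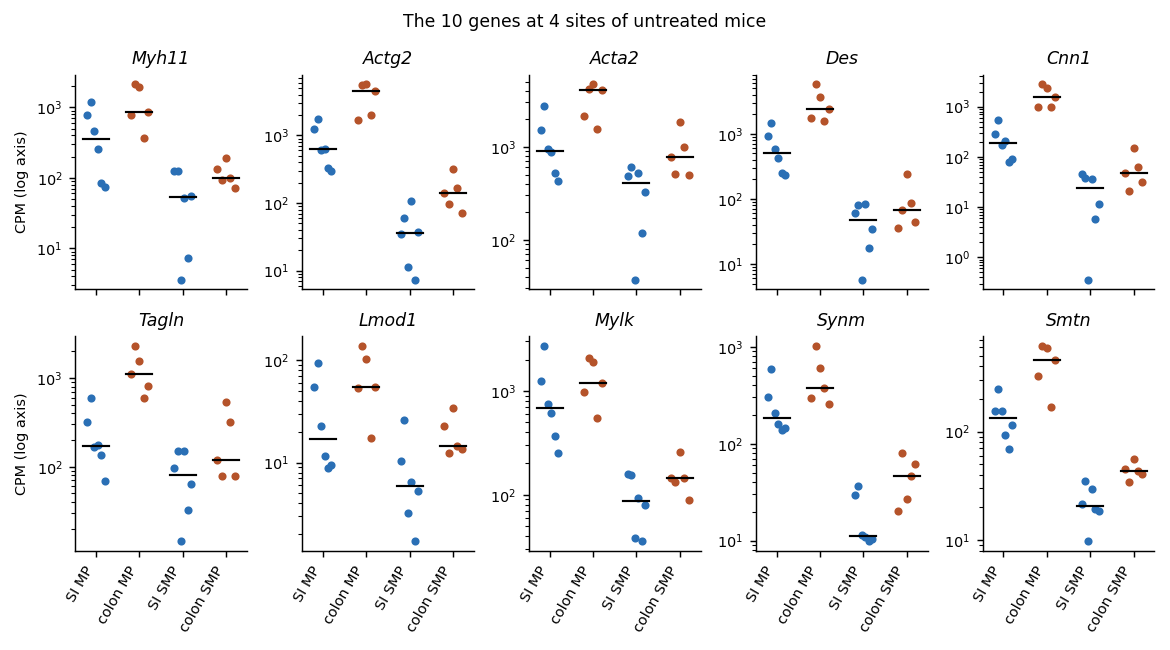
Level of each of the 10 genes in the 22 untreated libraries (CPM, log axis) at the 4 sites, 1 point per library, with a black line at the median of each site. For Actg2, Des, Cnn1, Mylk, Synm and Smtn the submucosal points lie below the myenteric points of the same region, while for Acta2 they overlap.

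Other muscle genes moved between plexuses as well. Of the 41 genes tested from 5 lists of muscle genes outside the 10, 24 were lower in the colon submucosal plexus and 26 were lower and 3 higher in that of the small intestine. Among 12 genes of the contractile apparatus, 10 fell in the colon, among them Hspb6 (a small heat shock protein of relaxing muscle, log2 fold change -3.72), Tpm2 (a tropomyosin, -2.94) and Myl9 (the regulatory light chain, -2.50). Among 12 genes of dense plaques, the sites where actin is anchored to the membrane, 9 fell, among them Synpo2 (-4.14). The muscarinic receptor gene Chrm2, which carries the acetylcholine signal to muscle, fell in the colon (-2.89) and the small intestine (-5.13). Of the 6 transcription regulators, 0 were called in the colon by edgeR, beside 11.1% of all genes called lower. So few genes cannot show a difference from that share. In the small intestine Mrtfa (1.51) and Mef2c (1.04) rose in the submucosal plexus.

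Markers of other cell types moved in the same contrast. Of the 10 glial markers 6 fell in the colon submucosal plexus and all 10 fell in that of the small intestine, and of 8 neuronal markers 6 and all 8 fell. The summed glial level was between 6437 and 13800 CPM in the colon myenteric and between 1169 and 5866 CPM in the colon submucosal libraries. All 5 immune markers rose in the submucosal plexus of both regions. A fit with the replicate number as a block called 10.1% (colon) and 23.4% (small intestine) of all genes higher there. Of 5 epithelial markers 2 rose in the colon and all 5 in small intestine, and their summed median went from 56.2 to 2090.4 CPM and from 23.8 to 1166 CPM. Of 4 mesothelial markers 3 fell in each region and 1 rose in small intestine, while their summed median was higher in the submucosal plexus (768 against 170.5 CPM in the colon). Of 4 tested markers of interstitial cells of Cajal, 3 fell in each region. Of 6 markers of pericytes and vascular muscle, 2 fell in colon tissue and 4 in small intestine. The share of mitochondrial counts was 11.6% to 18.8% in the myenteric and 2.84% to 9.43% in the submucosal libraries of the small intestine, and 5.35% to 16.5% against 4.02% to 7.18% for the colon. The number of genes detected did not overlap between plexuses, at 13357 to 14279 against 14488 to 16049 for small intestine and at 13141 to 14113 against 14180 to 14998 for colon. The part of these cell types and of RNA quality in the values of the 10 genes was not tested.

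In the untreated myenteric plexus, colon libraries held more of several muscle genes than small intestine libraries. Of the 10 genes, 4 were called higher in the colon (Smtn, Cnn1, Tagln and Actg2), against a background of 1.66% of genes called higher. All 10 had a positive log2 fold change, with a median of 1.57 beside 0.01 over all genes tested.

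Cnn1 was at 1005, 2794, 2403, 965 and 1557 CPM in the colon libraries and at 291, 551, 175, 211, 79.9 and 92 CPM in the 6 small intestine libraries. Every colon library lay above every small intestine library, and the log2 fold change was 2.90 ± 0.71 (edgeR adjusted p = 0.0277). Tagln, the transgelin that crosslinks actin, was also without overlap, although the lowest colon and the highest small intestine library were close, at 599.6 and 599 CPM, with a log2 fold change of 2.38 ± 0.63 (edgeR adjusted p = 0.0396).

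Smtn and Actg2 were called with overlapping ranges. Smtn was at 169 to 615 CPM in the colon and at 69.4 to 248 CPM in the small intestine, with a log2 fold change of 1.64 ± 0.34 (edgeR adjusted p = 0.0123), and Actg2 had 2.27 ± 0.59 (edgeR adjusted p = 0.0396). Des did not overlap between regions but missed the threshold, with 2.22 ± 0.62 (edgeR adjusted p = 0.0508), while DESeq2 called it (adjusted p = 0.00524, with 3.39% of all genes called higher by DESeq2). Mylk had the smallest difference of the 10, 0.45, and an edgeR adjusted p of 0.756. Acta2 (1.51), Myh11 (1.36), Lmod1 (1.12) and Synm (0.99) lay between.

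Of these calls, that of Smtn held without any 1 of the 11 libraries, with an edgeR adjusted p of at most 0.0313. The count fell to 1 gene without colon replicate 3 or small intestine replicate 3, 4, 5 or 6, and to 2 without colon replicate 2 or small intestine replicate 1. Actg2 was also lost without colon replicate 5 (2.22) and Tagln without colon replicate 1 (2.43). The log2 fold change of the lost genes then stayed between 2.06 and 2.88. Beside these muscle genes, 6 of 8 neuronal markers were lower in the colon, 3 of 6 fibroblast markers were higher (Lum by 2.13, Dcn by 2.07) and Kit, the receptor of interstitial cells of Cajal, was higher by 3.23 on the log2 scale. Their part in the values of the 10 was not tested.

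In the submucosal plexus the regions differed in the same direction without a call in the main fit. All 10 genes had a positive log2 fold change, from 0.72 to 1.89 with a median of 1.25, and the SE ran from 0.34 to 0.74. edgeR called 0 of 10, against a background of 5.18% called in either direction, with 6 at an unadjusted p under 0.05 (17.7% of all genes) and a lowest adjusted p of 0.0661. DESeq2 called 2 higher, Actg2 (1.91) and Synm (1.36), beside 5.72% of all genes. With the replicate number as a block edgeR called 4 higher, Lmod1, Actg2, Synm and Smtn, beside 4.21% of all genes. What these numbers stand for is not given in the sources used here. Without small intestine replicate 2 edgeR called Synm (1.71) and without small intestine replicate 4 Actg2 (2.40). In the same libraries the summed level of 5 markers of interstitial cells of Cajal was between 69.8 and 311 CPM (colon) and between 22.3 and 55.7 CPM (small intestine), without overlap. The medians of the fibroblast sum were 7102 and 3335 CPM, those of the pericyte and vascular muscle sum 383 and 185 CPM, and those of the immune sum 899 and 2269 CPM. Their part was not tested.

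The colon libraries also held more of these genes in the 2 h experiment. Over PBS and LPS together, 6 of the 10 genes were called higher in the colon, against a background of 1.77% called higher: Cnn1, Smtn, Tagln, Actg2, Des and Synm. The median log2 fold change of the 10 was 1.92.

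Cnn1 was at 8658, 3558, 2526 and 6802 CPM in the colon after PBS and at 798, 266, 121 and 926 CPM in the small intestine after PBS. After LPS it was at 5647, 6997, 2643 and 2063 CPM in the colon and at 538, 1203, 96.5 and 655 CPM in the small intestine. All 8 colon libraries lay above all 8 small intestine libraries, and the log2 fold change was 3.07 ± 0.51 (edgeR adjusted p = 0.00407). Smtn (2.20 ± 0.38) and Tagln (2.52 ± 0.48) followed with edgeR adjusted p of 0.00475 and 0.00811, and these 3 calls held without any 1 of the 16 libraries.

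Actg2 (2.37 ± 0.56), Des (2.18 ± 0.52) and Synm (1.44 ± 0.36) had edgeR adjusted p between 0.028 and 0.0365, and the count fell to 3 without PBS colon replicate 1 or 4, PBS small intestine replicate 2 or LPS small intestine replicate 1 or 4. Their log2 fold changes then ran from 1.35 to 2.37. Synm was called without 5 of the 16 libraries only, and Des was also lost without LPS colon replicate 2 (1.97). Myh11 (1.63), Acta2 (1.66), Lmod1 (1.11) and Mylk (0.74) missed the threshold, with edgeR adjusted p of 0.091 and 0.0612 for the first pair, and Mylk again had the smallest difference. DESeq2 called 8 of the 10 higher, Myh11 and Acta2 among them, beside 3.49% of all genes. With the replicate number as a block edgeR called 9 higher, beside 2.29% of all genes.

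Of the other muscle genes, 10 were higher in the colon at 2 h and none was lower by edgeR, among them Pdlim3 (2.28), Pln (an inhibitor of the calcium pump, 1.81), Ppp1r12b (a subunit of myosin phosphatase, 1.26) and Myocd (1.98), which encodes the coactivator myocardin. The tachykinin receptor gene Tacr2 was also called, but it was at 0 in every small intestine library after PBS, so no fold is given. It was between 2.72 and 51.5 CPM in the colon after PBS. Fibroblast markers moved with them, 4 of 6 being higher in the colon, and 6 of 8 neuronal markers were lower. The summed level of 6 pericyte and vascular muscle markers after PBS was between 1260.1 and 3355 CPM (colon) and between 511 and 1021 CPM (small intestine), without overlap, and its medians after LPS were 1823 and 962 CPM. That of 4 mesothelial markers after PBS was between 6.76 and 217 CPM (colon) and between 392 and 881 CPM (small intestine). The share of mitochondrial counts had medians of 2.58% (colon) and 7.62% (small intestine) after PBS. After LPS they were 4.91% and 7.37%, and the ranges overlapped under both injections. Their part was not tested.

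The balance of the 2 actins differed between sites. The ratio of Actg2 to Acta2 was examined after its values had been seen, in 20 comparisons with an exact 2-sided permutation test and Benjamini-Hochberg adjustment over the 20. In untreated mice the ratio was between 0.788 and 1.33 in the colon myenteric plexus and between 0.635 and 0.815 in the small intestine myenteric plexus. In the submucosal plexus it was between 0.144 and 0.188 in the colon and between 0.0621 and 0.298 in the small intestine.

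Between plexuses the ratios did not overlap in either region. The difference of mean log2 ratios, submucosal minus myenteric, was -2.52 in the small intestine (exact permutation p = 0.00216, adjusted p = 0.0433) and -2.73 in the colon (exact permutation p = 0.00794, the smallest that 5 against 5 allow, adjusted p = 0.0577). At 2 h after PBS the ratio was higher in every colon library than in any of the small intestine, at 1.41 to 1.73 against 0.549 to 1.08. The log2 difference of 1.00 had an exact permutation p of 0.0286, the smallest that 4 against 4 allow, and an adjusted p of 0.114. The lowest adjusted p of the ratio at 24 h was 0.606, and the ratio varied within a group, in the colon of Gpr37WT mice given PBS from 0.0696 to 1.16.

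**Figure D3:**
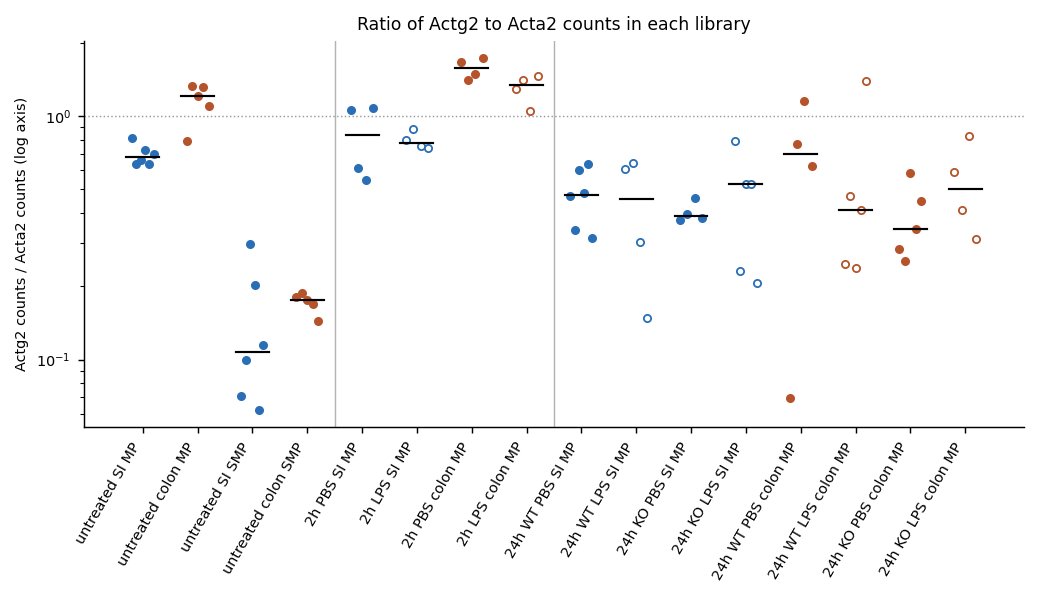
Ratio of Actg2 to Acta2 (CPM over CPM, log axis) in each of the 75 libraries by group, 1 point per library, open symbols for LPS. The untreated submucosal libraries lie at 0.298 or below, under all untreated myenteric libraries at 0.635 or above, and the 2 h colon libraries lie above 1.

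LPS at 2 h left no detectable difference in these genes. edgeR called 0 of the 10 in the small intestine (background 1.1%) and 0 in the colon (background 0.778%), 0 had an unadjusted p under 0.05 in either region, and DESeq2 also called 0. The 10 had a median log2 fold change of 0.25 (small intestine, 8 higher and 2 lower) and 0.04 (colon, 7 higher and 3 lower). Acta2, as an example, was at 15635, 6023, 4679 and 10223 CPM in the colon after PBS and at 14321, 12919, 5736 and 4342 CPM after LPS. The treatments overlapped almost wholly. The SEs lay between 0.50 and 0.76, so changes of that size were not detectable in this design. The difference of the LPS contrast between regions was also tested, with 0 calls by edgeR (background 0%), 0 at an unadjusted p under 0.05 and 0 by DESeq2. None of the other muscle genes was called by edgeR at 2 h.

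At 24 h, Gpr37WT mice given LPS had lower levels of some of the 10 genes than those given PBS. For the small intestine edgeR called 2 of 10 lower, Lmod1 and Synm, against a background of 2.99% called lower. In the colon it called 3 lower, Smtn, Synm and Lmod1, against a background of 4%. All 10 log2 fold changes were negative in both regions, with medians of -1.30 (small intestine) and -1.63 (colon), beside -0.13 and -0.03 over all genes tested.

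Lmod1 was at 37.7, 70.2, 32.7, 9.93, 79.9 and 18.1 CPM in the small intestine of Gpr37WT mice after PBS and at 7.95, 6.2, 8.57 and 4.99 CPM after LPS. Each LPS library lay below each PBS library, and the log2 fold change was -2.58 ± 0.69 (edgeR adjusted p = 0.018). In the colon it was at 26.8, 29.3, 34.6 and 4.82 CPM after PBS and at 7.28, 9.11, 2.83, 1.36 and 8.02 CPM after LPS. There 1 PBS library lay among the LPS libraries, and the log2 fold change was -2.05 ± 0.66 (edgeR adjusted p = 0.0491).

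Synm was at 65.7, 131, 145 and 104 CPM in the colon after PBS and at 21.5, 35.8, 19.6, 37.1 and 57.8 CPM after LPS. The groups did not overlap, and Synm fell by 1.70 ± 0.43 (edgeR adjusted p = 0.0139). The lowest, median and highest Synm levels in the small intestine were 99.6, 131 and 179 CPM after PBS, and the 4 LPS libraries were at 45.7, 103, 26.7 and 26.1 CPM. There 1 LPS library reached the PBS range, and the log2 fold change was -1.38 ± 0.43 (edgeR adjusted p = 0.046).

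Smtn was at 109, 249, 322 and 141 CPM in the colon after PBS and at 94.3, 57.2, 15.6, 41.8 and 51.9 CPM after LPS, again without overlap. It fell by 1.98 ± 0.49 (edgeR adjusted p = 0.0112). Its small intestine log2 fold change was -1.13 ± 0.48 and missed the threshold (edgeR adjusted p = 0.159). The abundant genes Actg2, Acta2 and Myh11 were not called: Actg2 had -1.36 ± 0.92 and -1.80 ± 0.92, Acta2 -1.54 ± 0.62 and -1.55 ± 0.62, and Myh11 -1.23 ± 0.70 and -1.57 ± 0.70 in the small intestine and the colon. Tagln had the smallest differences, -0.39 and -0.68.

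These calls at 24 h depended on single libraries. For the small intestine the count was 0 without LPS replicate 4 and 1 without any other of the 10 libraries. Lmod1 missed the threshold there without LPS replicate 2 (-2.53, edgeR adjusted p = 0.0584) or replicate 4 (-2.39, edgeR adjusted p = 0.0563), and Synm held only without LPS replicate 2. In the colon the count was 0 without PBS replicate 3 (Smtn -1.67 with an edgeR adjusted p of 0.0551, Synm -1.54 with 0.0514), and Lmod1 missed the threshold without 7 of the 9 libraries, PBS replicate 4 and LPS replicate 2 being the exceptions. Actg2, in turn, passed it without LPS replicate 5, the library at 813 CPM where the other 4 were between 70.5 and 115 CPM, with a log2 fold change of -3.25 (edgeR adjusted p = 0.0382). Without all 4 libraries labelled Gpr37WT that had 3 or fewer Gpr37 counts, 1 gene was called lower for the small intestine (Lmod1, -2.62, background 2.66%) and 0 for the colon (background 0.764%), where only 2 LPS libraries then remained. The colon values were then -1.50 for Lmod1, -1.92 for Synm and -1.41 for Smtn (edgeR adjusted p = 0.434, 0.0945 and 0.28), and all 10 stayed negative in both regions.

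**Figure D4:**
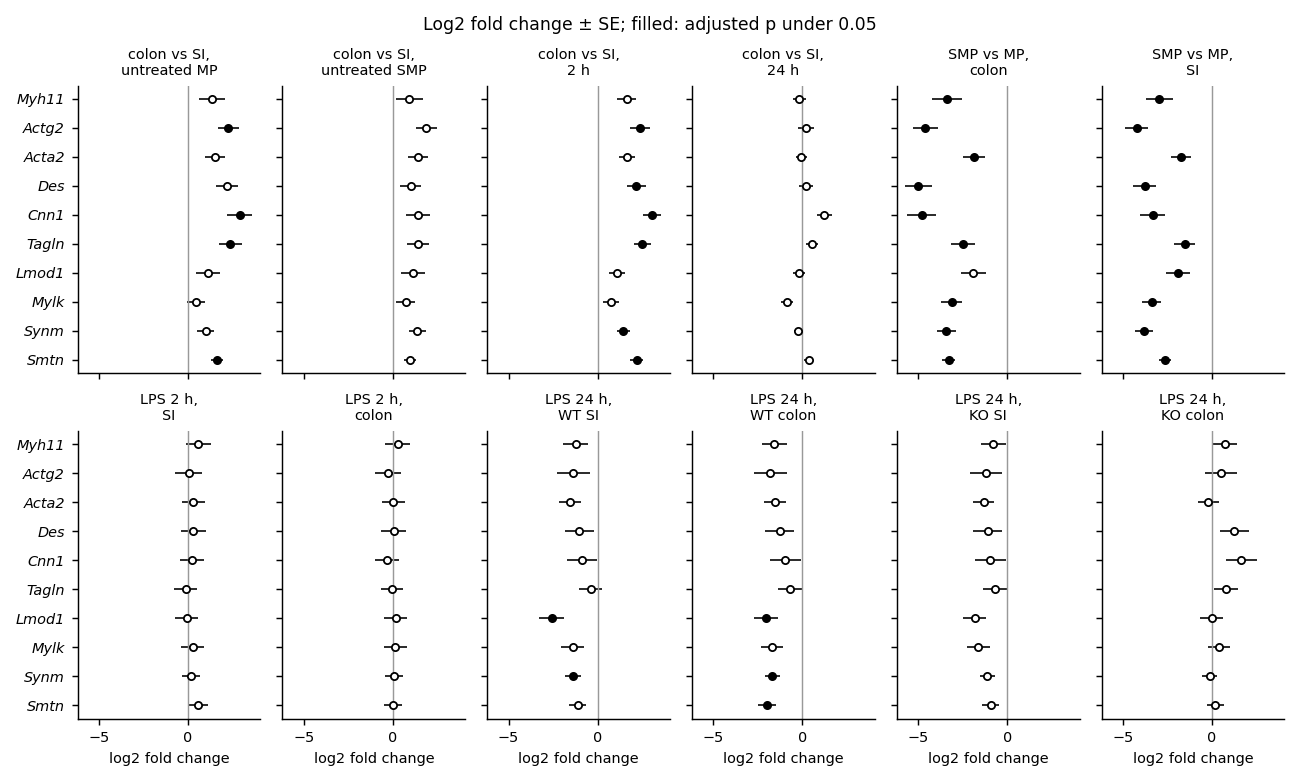
Log2 fold change of each of the 10 genes with its SE in the comparisons of region, plexus and LPS, filled symbols where the edgeR adjusted p was under 0.05. The plexus comparisons lie far to the negative side (medians -3.34 and -3.14), the LPS comparisons at 2 h lie around 0, and those in Gpr37WT mice at 24 h lie at moderate negative values (medians -1.30 and -1.63).

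Some other muscle genes and fibroblast genes were lower in the same libraries. Of the other muscle genes, 7 were called lower in each region of Gpr37WT mice after LPS, beside 2.99% (small intestine) and 4% (colon) of all genes. Itpr1, the receptor that releases calcium from internal stores, fell in both (-3.87 for small intestine, -3.36 for colon), as did Flna, an actin crosslinker (-1.75 and -1.32). Tpm1 (-1.79) and Cald1 (-1.25) fell in the small intestine, and Tpm2 (-2.09) and Prkg1, the kinase that relays nitric oxide signals (-2.77), in the colon. Of 6 fibroblast markers 3 fell in each region, the collagen genes Col1a1, Col1a2 and Col3a1, and the summed fibroblast level was between 14552 and 23369 CPM in the colon after PBS and between 703 and 8977 CPM after LPS. In the same colon libraries the summed level of 6 pericyte and vascular muscle markers was between 420.1 and 679 CPM after PBS and between 84.2 and 392 CPM after LPS, without overlap. That of 5 markers of interstitial cells of Cajal had medians of 297 and 112 CPM. In small intestine libraries its medians were 254 and 133 CPM, and the summed level of 4 mesothelial markers was between 599 and 2893 CPM after PBS and between 216 and 385 CPM after LPS, without overlap. The number of genes detected in the colon was between 14048 and 14550 after PBS and between 12592 and 13877 after LPS, also without overlap. Their part in the values of the 10 genes was not tested.

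In the LPS libraries at 24 h the relative levels of some of the 10 genes went with the mouse numbers in the labels. On the log2 scale, the level of Lmod1 minus the mean of the 10 genes was between -4.84 and -4.02 in the 8 LPS libraries of mice numbered 10 or below. It was between -3.30 and -1.68 in the 10 LPS libraries of mice numbered 11 or above, so these did not overlap. After PBS it was between -2.92 and -2.37 in the 4 libraries of mice 10 or below and between -4.15 and -1.80 in the 15 of mice 11 or above. After LPS, Smtn was between -2.39 and -0.27 in mice 10 or below and between -0.45 and 1.63 in mice 11 or above, with some overlap. Des went the other way, between 1.32 and 2.04 against between 0.19 and 1.33, with ranges that just met. The medians of Actg2 (1.15 against 0.03), Cnn1 (0.85 against -0.46) and Tagln (0.33 against -0.62) were also higher in mice 10 or below, with overlap. After PBS the order of medians was the reverse for Smtn (-0.06 against -0.61), Actg2 (0.72 against 0.86) and Tagln (-0.83 against -0.70). It was the same for Des (1.13 against 0.93) and Cnn1 (-0.03 against -0.45). The share of mitochondrial counts was between 9.05% and 17.9% in the LPS libraries of mice 10 or below and between 2.34% and 7.30% in those of mice 11 or above, without overlap, and its part was not tested. What the numbers stand for is not given in the sources used here, and the division at 10 was chosen after the values had been seen.

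These mouse numbers were not spread evenly over groups. Of the 5 LPS colon libraries of Gpr37WT mice 3 came from mice numbered 10 or below, and none of the 4 PBS colon libraries did. In mice numbered 11 or above alone, with 2 LPS and 4 PBS libraries (in the Gpr37WT colon the same ones that remain without low Gpr37 counts, fitted with fewer libraries of the other groups), 1 gene was called lower in the Gpr37WT colon (background 5.28%), Synm, while Lmod1 (-1.51, edgeR adjusted p = 0.257) and Smtn (-1.42, edgeR adjusted p = 0.106) were not. With 2 and 5 small intestine libraries, 3 were called lower (background 4.17%): Synm, Mylk (-2.59, edgeR adjusted p = 0.031) and Acta2 (-2.56, edgeR adjusted p = 0.0358), while Lmod1 (-2.25, edgeR adjusted p = 0.0843) was not. For the colon of Gpr37WT mice, treatment within mice numbered 10 or below has no PBS library, so that part of the LPS value cannot be told apart from the mouse numbers.

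**Figure D5:**
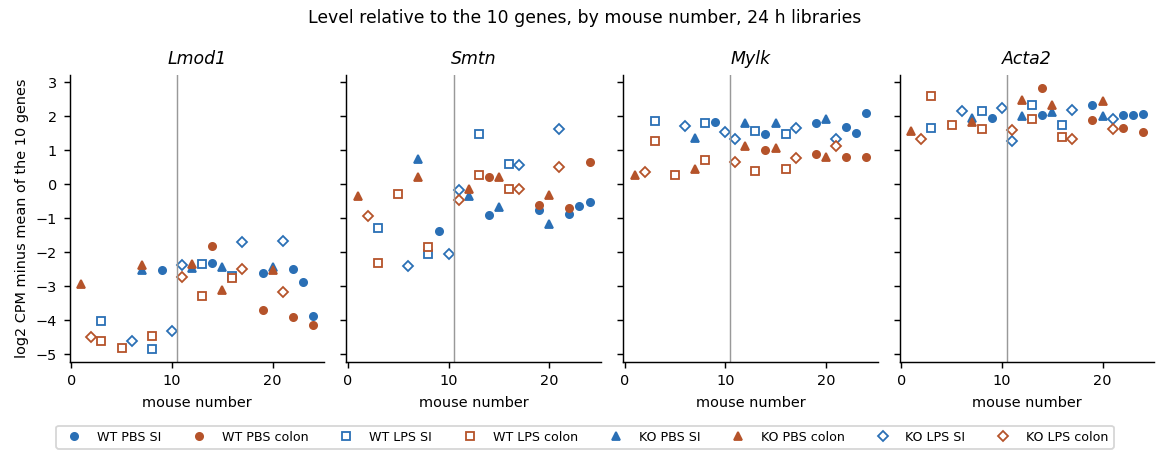
Level of Lmod1, Smtn, Mylk and Acta2 relative to the mean of the 10 genes (difference of log2 CPM) in the 37 libraries at 24 h, by mouse number, open symbols for LPS, with SI for small intestine, WT for Gpr37WT and KO for Gpr37-/-, and with a line between mice 10 and 11. The LPS points of Lmod1 lie at -4.02 or below to the left of the line and at -3.30 or above to the right of it.

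In Gpr37-/- mice no member passed the test after LPS. edgeR called 0 of 10 in the small intestine (background 0.718%), with 4 at an unadjusted p under 0.05 (11.5% of all genes), and DESeq2 called 0. All 10 log2 fold changes were negative there, with a median of -1.10, and the largest were those of Lmod1 (-1.82 ± 0.65, edgeR adjusted p = 0.209) and Mylk (-1.62 ± 0.64). In the colon edgeR again called 0 of 10 (background 0.718%), with 0 at an unadjusted p under 0.05 and 0 by DESeq2, and 7 of the 10 values were positive, with a median of 0.45.

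In the colon the LPS contrasts of the genotypes were compared as an interaction. Smtn was at 197, 141, 101, 153 and 325 CPM after PBS and at 299, 189.6, 168 and 182 CPM after LPS in the colon of Gpr37-/- mice, with overlapping ranges. The difference of LPS contrasts, Gpr37-/- minus Gpr37WT, was positive for all 10 genes in the colon, from 1.36 to 2.61 with a median of 2.14, and 7 had an unadjusted p under 0.05, beside 13.5% of all genes. edgeR called 0 of 10 (background 0%), with a lowest adjusted p of 0.176, and DESeq2 called 0. For the small intestine edgeR and DESeq2 also called 0 of the 10 in the interaction (background 0%), with 0 at an unadjusted p under 0.05. Without the Gpr37WT libraries of low Gpr37 counts, edgeR called 0 in either interaction, the colon median was 2.26 with a lowest adjusted p of 0.535, and that of the small intestine was 0.25.

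Between genotypes under the same injection, edgeR called 0 of the 10 in each of 4 comparisons. In 3 of them, all but the colon after LPS, 0 had an unadjusted p under 0.05 and DESeq2 called 0. After PBS the background was 0% in both regions, and in the colon 9 of the 10 values were lower in Gpr37-/- mice, with a median of -0.46. After LPS the background was 0.0134% (small intestine) and 0.429% (colon). In the colon after LPS all 10 values were higher in Gpr37-/- mice, from 0.91 to 2.45 with a median of 1.38, and 5 had an unadjusted p under 0.05, beside 16.4% of all genes. The summed level of 6 fibroblast markers in these libraries was between 703 and 8977 CPM (median 3097) in Gpr37WT and between 1545 and 16073 CPM (median 15289) in Gpr37-/- mice. That of 5 endothelial markers had medians of 328 and 1064 CPM, with overlap. Their part was not tested.

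In that comparison Smtn was at 168 CPM or more in Gpr37-/- mice and at 94.3 CPM or less in Gpr37WT mice, and Lmod1 and Myh11 did not overlap either, against a background of 3.14% of genes without overlap. The log2 differences were 2.01 ± 0.49 for Smtn (edgeR adjusted p = 0.0521), 2.45 ± 0.67 for Lmod1 (edgeR adjusted p = 0.0754) and 1.95 ± 0.71 for Myh11. DESeq2 called 2 of the 10 higher, Smtn and Lmod1, beside 2.33% of all genes. Without LPS colon replicate 1 of Gpr37WT mice edgeR called Smtn (2.33, edgeR adjusted p = 0.0434), and without the Gpr37WT libraries of 3 or fewer Gpr37 counts its value was 1.45 (edgeR adjusted p = 0.498), that of Lmod1 1.90 (0.526) and that of Myh11 1.97 (0.579), with 0 calls by edgeR. The small intestine then also had 0 calls, with a median of 0.28. Of the 5 Gpr37WT libraries 3 came from mice numbered 10 or below, and of the 4 Gpr37-/- libraries 1 did. These LPS and genotype comparisons share groups, so their values are not independent of each other.

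At 24 h few of the 10 genes differed between regions in any fit. Over the 4 combinations of genotype and injection, 5 of the 10 genes had a higher value in the colon and 5 a lower one, and the median of the 10 log2 fold changes was 0.08. edgeR called 0 of 10, against a background of 7.72% called in either direction, with 2 at an unadjusted p under 0.05 (20.2% of all genes), and DESeq2 called 1 higher (background 3.81%). The largest difference was that of Cnn1, 1.24 ± 0.44 (edgeR adjusted p = 0.078). With the mouse as a block, which uses 15 mice with a library from each region, Cnn1 was called higher in the colon, at 1.71 (edgeR adjusted p = 0.0185, background 1.82% called higher). Cnn1 also passed without LPS small intestine replicate 4 of Gpr37-/- mice (1.41), without PBS small intestine replicate 3 of Gpr37-/- mice (1.42) and without PBS colon replicate 1 of Gpr37WT mice (1.34). Mylk had a value of -0.86. Without the Gpr37WT libraries of low Gpr37 counts edgeR called 0, with a median of -0.09 and 1.16 for Cnn1 (edgeR adjusted p = 0.152). No test compared the regional difference between experiments.

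Among libraries of the same group 7 of the 10 genes went up and down together, with r of at least 0.909 in both tables. Among the 8842 genes ranked by their correlation with the mean of the 10 in both tables (each member against the mean of the other 9), 7 of the 10 nearest genes were members. Mylk came first, with r = 0.958 over 37 libraries at 24 h and 0.968 over the 38 untreated and 2 h libraries. The other 3 were the tropomyosins Tpm2 (0.946 and 0.971) and Tpm1 and the light chain Myl9 (0.889 and 0.964). The 10 nearest genes stayed the same 10 without the highest and lowest library of each table. Synm followed less closely, with r = 0.614 at 24 h and 0.706 in the untreated and 2 h libraries. Lmod1 and Smtn had r = 0.893 and 0.857 in the untreated and 2 h libraries but 0.522 and 0.24 at 24 h. For this ranking both levels were taken as deviations from the group means. Differences between regions, plexuses, injections and genotypes thus do not enter these correlations. They describe libraries that share scaling, and they carry no test. The mean of the 10 glial markers had r = -0.317 and -0.375 with the mean of the 10 muscle genes in the same libraries.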

How the data were processed

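The authors deposited raw counts per gene in 2 tables. Reads were handled with Trim Galore 0.4.4, STAR 2.5.3, DESeq2 and the GRCm38 build, per the submitters' processing notes, and libraries were made with Smart-seq2, per the labels' protocols. The counting tool, annotation and strand setting are not given in the sources used here. Each experiment was fitted alone in edgeR 4.0.16 (R 4.3.3): filterByExpr, TMM scaling, 1 coefficient per group and quasi-likelihood tests, adjusted by Benjamini-Hochberg over all genes. DESeq2 1.42.0 was an alternative. Scripts were tested on simulated data. CPM use TMM-scaled totals, ratios were tested by exact permutation (Python 3.11.15, scipy 1.17.1), and figures were drawn with matplotlib 3.10.9.

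All 10 genes are named, and other muscle genes and markers come from fixed lists, with the largest called changes given as examples. The members and lists were chosen with earlier results of these data known. In the first 2 experiments each group held libraries of both sexes, but nothing says that each library was a separate mouse, so those p-values measure only the spread between these libraries. Pairs of replicates differed beyond sampling noise. At 24 h the labels give mouse numbers: 15 mice gave a library from each region, with a mean correlation of 0.12 between deviations from the group means, against -0.02 between different mice. The depth per library limits the precision of low genes: Cnn1 had as few as 1 count and Lmod1 as few as 6.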

Additional observations from a re-analysis of the deposited data

Results flagged for a closer look

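Of 192 groups of values tested for 1 library far from the others (Dixon's test), 6 were singled out, where 1 in 20 gives 9.6. In the colon of Gpr37WT mice 24 h after LPS, replicate 5 had 813 CPM of Actg2 (the others 70.5 to 115), 771 CPM of Des (122 to 272) and 547 CPM of Cnn1 (103 to 227). In the untreated submucosal plexus, Des was at 239 CPM in colon replicate 4 (35.9 to 86.2 in the others) and Lmod1 at 25.8 CPM in small intestine replicate 2 (1.70 to 10.4). In the colon of Gpr37-/- mice after LPS, Smtn was at 299 CPM in replicate 1 (168 to 189.6).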

How the results depend on the processing

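Of the 200 log2 fold changes of members, 34 passed the threshold, and no call changed direction under RLE scaling, DESeq2, no filter, the compared groups alone, a replicate block, the division of mice or any left-out library. The count of members called lay between 1 and 5 over left-out libraries for region in the untreated myenteric plexus, 0 and 1 in the submucosal plexus, 3 and 8 for region at 2 h, 0 and 1 for LPS in the Gpr37WT small intestine at 24 h, 0 and 3 in the Gpr37WT colon, and 0 and 1 for genotype in the colon after LPS and for region at 24 h. DESeq2 called 2 for region in the untreated submucosal plexus, 2 for genotype in the colon after LPS and 1 for region at 24 h. RLE scaling called 1 for genotype in the colon after LPS. For LPS in the Gpr37WT small intestine, no filter on low counts gave 1. For LPS in the Gpr37WT colon, the compared groups alone gave 1 and mice numbered 11 and above gave 1. For region at 24 h, mice numbered 11 and above gave 1 and a covariate for mice numbered 10 and below gave 1. Leaving out the Gpr37WT libraries with 3 or fewer Gpr37 counts, chosen after seeing the data, gave 1 for LPS in Gpr37WT small intestine and 0 in Gpr37WT colon. The share of all genes called is not given here for RLE scaling, no filter, the compared groups alone, the covariate or left-out libraries. Those counts show only how the calls moved. The cause of these moves was not tested.

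With the replicate block, the count was 4 for region in the untreated submucosal plexus (Lmod1, Actg2, Synm and Smtn higher in the colon, where 4.21% of all genes were called higher), and 1 for region at 24 h, where the block is the mouse. In the untreated and 2 h experiments, what equal numbers stand for is not given in the sources used here. Pairs of equal number there had a mean r from 0.04 to 0.19. Pairs known to share a mouse at 24 h had a mean r of 0.12, with 10 of 15 over 0.1. These correlations therefore cannot tell whether equal numbers mark the same mouse. With the block the count was also 9 for region at 2 h (2.29% of all genes called higher) and 5 in the untreated myenteric plexus (0.837%). The block moved no other count by more than 1.5 times.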
